A study of Mus musculus with 2 samples.

Results

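The cells described here, labelled innate lymphoid-like, were chosen by 6 of their own transcripts. They were the cells with at least 1000 unique molecular identifiers (UMIs) and under 10% mitochondrial UMIs in which Il7r, Icos, Calca, Gata3, Il2ra and Cxcr6 summed to at least 4 UMIs per 10,000 and in which at least 2 of the 6 were seen. By this rule 1013 of 13369 cells were selected, 880 of 6711 in the miR-142 KO CML library and 133 of 6658 in the miR-142 WT CML library. Levels of these 6 genes are therefore given as a description and were not tested.

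Innate lymphoid cells are lymphocytes that carry no rearranged antigen receptor and answer to cytokines and to signals from nerves and epithelia. The type 2 kind (ILC2) depends on the transcription factors Gata3, Rora, Id2 and Bcl11b, lives on interleukin 7 and related cytokines, and senses interleukin 33 and interleukin 25 through Il1rl1 and Il17rb. In bone marrow, ILC2 and their precursors carry Sca-1 on the surface and can carry c-Kit, the proteins by which the sorted stem and progenitor fraction is gated.

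Both libraries held Lin-Sca-1hi c-Kit hi (LSK) bone marrow cells from C57BL/6 SCLtTA/BCR-ABL mice aged 8 to 10 weeks, a model of chronic myeloid leukemia (CML) in which taking tetracycline away switches on BCR-ABL under the SCL promoter, here for 2 weeks. The KO mice also lacked miR-142 throughout the body, and the WT mice kept it. Each genotype was 1 library, the number of mice behind it was not stated, and so no difference between the genotypes has a replicate check. Library, genotype and the mice used cannot be told apart.

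The deleted microRNA gives 2 mature strands from mouse chromosome 11 (GRCm38, RefSeq), shown with the seed, bases 2 to 8, in capitals because the genotypes differ by these sequences.
mmu-miR-142a-3p: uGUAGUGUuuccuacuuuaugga
mmu-miR-142a-5p: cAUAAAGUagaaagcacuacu
They lie at chr11:87756903-87756925 and chr11:87756867-87756887 on the plus strand, inside the noncoding host gene Mir142hg. Mir142hg had 1374 UMIs over all WT cells and 20 over all KO cells. Its level was 9.59 and 0.121 UMIs per 1000000 UMIs (CPM), and among the KO cells meeting the rule, with possible doublets left out, it had 0 UMIs.

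The reference sequences upstream of the genes that mark the cells are shown where they hold the letters AGATAA or TGATAA, on either strand and in capitals, since GATA factors are known to bind such letters and Gata3 is one of the 6 genes. Of the 6 genes and Il1rl1, 6 matched a RefSeq start in GRCm38, with 7 starts, and 3 of these starts had the letters within 250 bases upstream. Of all 32851 such windows, 16.6% had them, and a match is not evidence of binding.
Calca: aagagatgaaatTTATCTtgatgtcaaaag
Il1rl1: gaaggtccatggAGATAAgggtaaaactgg
Il1rl1: ctgtaaagtaacTGATAAggaaacagggag
Il1rl1: aaacagcattgtTTATCTcagcttcactga
The Calca window is chr7:114636558-114636587 on the minus strand, and the Il1rl1 windows are chr1:40429341-40429370 and chr1:40429478-40429507 at the first start and chr1:40439514-40439543 at the second, on the plus strand.

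Cells meeting the rule made up 13.1% of the KO library (95% Clopper-Pearson interval 12.3 to 13.9) and 2.0% of the WT library (1.68 to 2.36). Intervals throughout reflect the number of cells or UMIs counted and carry nothing of how mice vary. Intervals of UMIs also carry nothing of how cells vary. Both shares are of cells that passed the Sca-1 and c-Kit gate, whose part in them was not tested. The KO cells carried a median of 5772 UMIs and 1905 genes, against 21233 UMIs and 4383 genes in the other KO cells. The WT cells carried a median of 7825 UMIs. The rule was met with room to spare in most KO cells, where 5 of the 6 genes were seen in 318 cells and all 6 in 272. In WT, 2 of the 6 were seen in 58 cells and all 6 in 5. Just inside the rule, at 4 to under 5 UMIs per 10,000, lay 38 KO and 14 WT cells, and just outside it, at 3 to under 4 with at least 2 genes seen, lay 27 KO and 12 WT cells.

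Some of these cells carried transcripts of other lineages. Above 8000 UMIs and with at least 50 UMIs per 10,000 of Elane, Mpo, Prtn3 and Ctsg, which encode neutrophil granule proteins, 99 KO and 3 WT cells were treated as possible doublets and left out below, where 781 KO and 130 WT cells remain. The possible doublets had a median of 45581 UMIs in KO. Among the remaining cells, 94 in KO and 84 in WT also carried mast cell genes, with at least 20 UMIs per 10,000 of Cpa3, Gata2, Ms4a2, Fcer1a, Cma1 and Mcpt8 and at least 3 of the 6 seen. Without them 687 KO cells (10.2%, 9.52 to 11.0) and 46 WT cells (0.691%, 0.506 to 0.920) were left. The label of innate lymphoid-like cells therefore goes against the data for most WT cells meeting the rule. Of these 130 cells, 64.6% carried mast cell genes. The WT share and the KO over WT ratios of the rule genes are given with and without the cells carrying mast cell genes. The WT median of UMIs, the WT counts by rule genes seen and the WT counts near the threshold, all given above, include them. Without them the 46 WT cells had a median of 5610 UMIs. Their 6 rule genes summed to a median of 30.6 UMIs per 10,000. The libraries shared 8 cell barcodes, of which 1 belonged to a WT and 2 to KO cells meeting the rule.

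**Figure D1:**
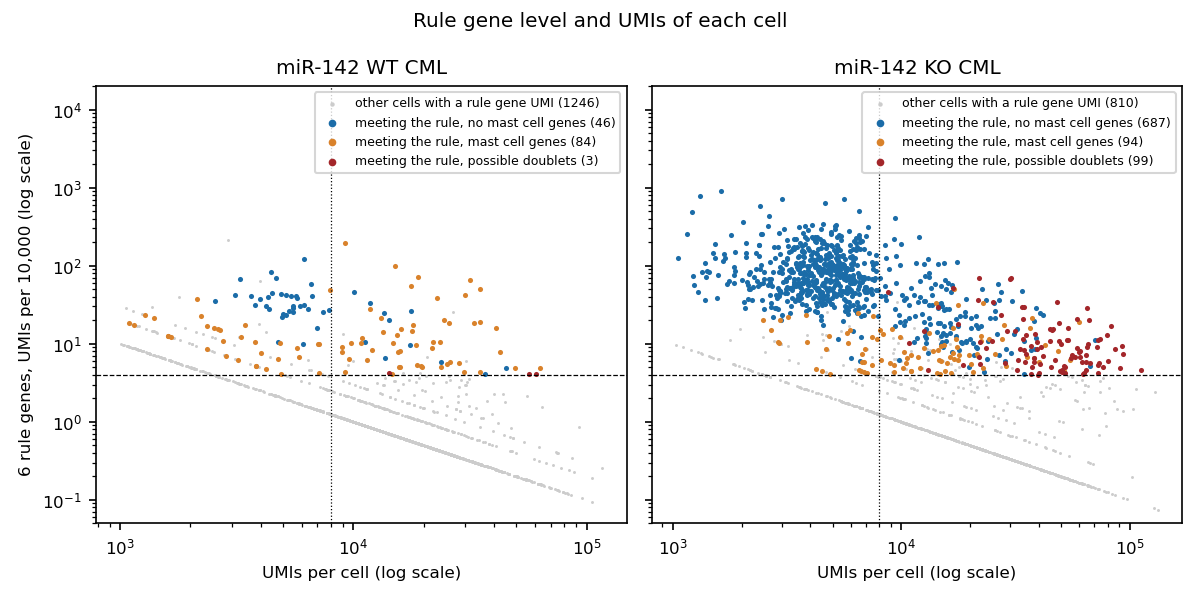
Each point is a cell with at least 1 UMI of a rule gene, placed by its UMIs (log scale) and by the summed UMIs of the 6 rule genes per 10,000 (log scale), in WT and KO. The dashed line is the rule's 4 per 10,000 and the dotted line 8000 UMIs. Most of the 687 KO cells without mast cell genes form a dense cloud below 8000 UMIs, and 147 of them lie above it. The 46 WT cells are few, and the 99 possible doublets in KO lie at high UMIs.

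The 6 rule genes were at high level in the KO cells and close to 0 in the other KO cells. Il7r, the receptor of interleukin 7, was at 804 CPM (exact Poisson interval 782 to 826) against 1.71 in the other KO cells. It was at 290 CPM in the WT cells meeting the rule. Calca, which encodes calcitonin and the neuropeptide CGRP, was at 3150 CPM in KO and 1096 CPM in WT, against 2.65 in the other KO cells. Its level varied widely from cell to cell, with a median of 11 UMIs a cell in KO, quartiles of 2 and 34, and 382 UMIs in the highest cell. Gata3 was at 419 CPM in KO, 160 CPM in WT and 2.80 in the other KO cells. Icos, a costimulatory receptor, was at 294 and 80.8 CPM in KO and WT, and Il2ra, the alpha chain of the interleukin 2 receptor, at 336 and 259 CPM. Cxcr6, a chemokine receptor, was at 135 CPM in KO and 83.3 in WT, against 0.150 in the other KO cells.

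At a depth thinned to 1000 UMIs a cell, 59.2% of the KO cells had an Il7r UMI (55.6 to 62.6) and 67.5% a Calca UMI (64.1 to 70.8). In the other KO cells the thinned shares were 0.360% for Il7r and 0.343% for Calca. At full depth the Il7r and Calca shares were 92.1% and 87.7% in the cells meeting the rule and 1.84% and 4.24% in the other KO cells. Free RNA, taken from barcodes of at most 100 UMIs, held Calca at 155 CPM and Il7r at 15.4 CPM in KO, which is more than the other KO cells held. KO lymphoid-primed cells were 133 cells with Flt3 and Dntt that did not meet the rule. They held 1 UMI of Il7r and 4 of Calca in all, which leaving out the cells that meet the rule sets in part.

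Without the cells that carry mast cell genes, how often a pair of rule genes was seen in the same KO cell ranged from 320 of 687 cells for Icos and Cxcr6 to 619 for Il7r and Gata3. The rule itself asks for at least 2 of the 6. Il7r and Gata3 were both seen in 45 of 46 WT cells. Il7r and Calca were both seen in 600 of 687 KO cells but 12 of 46 WT cells.

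Across all genes, those with at least 20 CPM in the KO cells meeting the rule or in the other KO cells were compared, 6104 in all. Of these, 757 (12.4%) were at least 2-fold higher in the cells meeting the rule and 551 (9.03%) at least 2-fold lower. Ratios are of CPM with 1 added, and their median over all genes was -0.10 on the log2 scale. With 1 KO library there is no test, and the counts rest on the choice of comparison cells. They also rest on the minimum level, since 894 of the 6104 genes reached it only in the cells meeting the rule, could therefore only lie higher there, and gave 483 of the 757. Of the 4604 genes that reached it on both sides, 274 (5.95%) were at least 2-fold higher and 311 (6.75%) at least 2-fold lower. Against the 685 other KO cells of 1000 to 8000 UMIs, which include 201 with mast cell genes, 257 genes were higher and 297 lower.

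Of 97 listed genes of the ILC2 programme outside the rule, 37 did not reach 20 CPM and 60 did, 35 of these only in the cells meeting the rule. Of the 24 that reached it on both sides, 12 were at least 2-fold higher and 1 was lower. Over all 60, a count and a median that the minimum level sets in part, 47 were higher, 2 lower and 11 in between, with a median log2 ratio of 3.12. Without the cells carrying mast cell genes the median was 2.91, with 44 of 59 higher, and against the other KO cells of up to 8000 UMIs it was 1.19. Compared with the KO lymphoid-primed cells, where 8.66% of all genes were at least 2-fold higher and 5.86% at least 2-fold lower, 40 of 59 of the ILC2 genes were higher and 1 was lower. There 32 reached the minimum only in the cells meeting the rule, and of the 27 that reached it on both sides 10 were higher and 1 was lower. Of all genes that reached it on both sides in that comparison, 3.68% were higher and 3.22% lower.

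**Figure D2:**
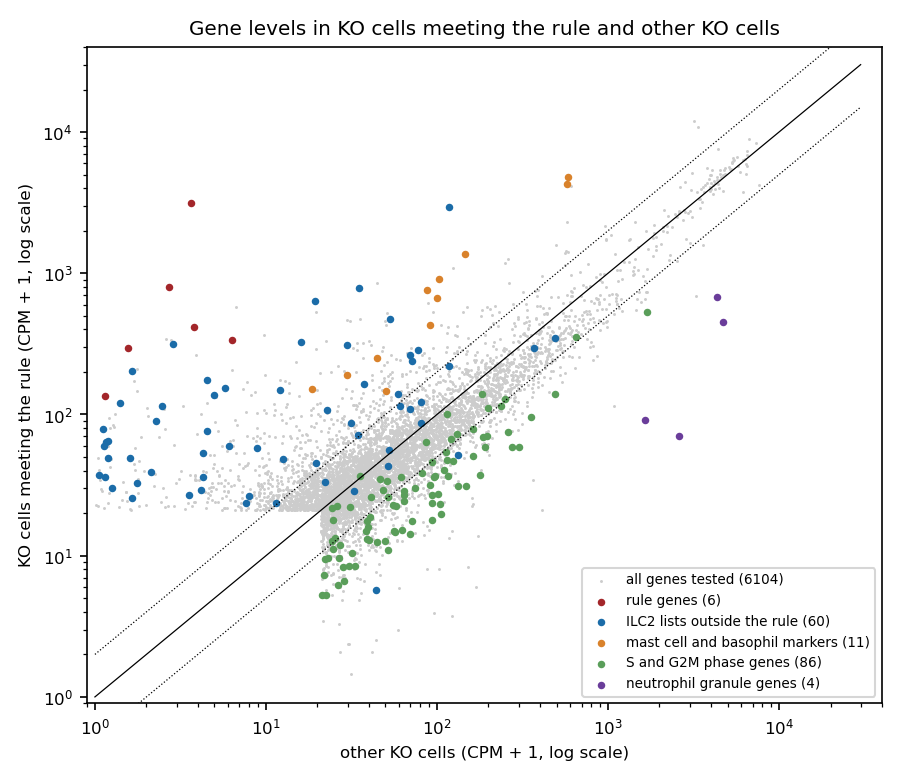
Each point is 1 of 6104 genes, placed by its level in the other KO cells and in the 781 KO cells meeting the rule (CPM plus 1, log scales). The solid line marks equal levels and the dotted lines 2-fold. The rule genes and most genes of the ILC2 lists lie far above the lines, the neutrophil granule genes and most S and G2M phase genes below, and the mast cell and basophil genes above, with 94 of the cells carrying them.

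Of 21 transcription factors of ILC2, 6 did not reach the minimum and 9 reached it only in the cells meeting the rule, so these 9 could only lie higher there. Of the 6 that reached it on both sides 3 were at least 2-fold higher and none was lower. Ikzf3, a zinc finger factor of lymphocytes, was at 78.5 CPM against 0.117 in the other KO cells, a log2 ratio of 6.15. Bcl11b was at 63.7 against 0.189 CPM, Rora at 114 against 1.46 CPM, and Maf at 88.6 against 1.29 CPM. Id2, an inhibitor of E proteins that all innate lymphoid cells need, was at 633 against 18.4 CPM, and Ahr, the aryl hydrocarbon receptor, at 137 against 4.0 CPM. Tcf7, a factor of early lymphoid cells, was under the minimum level at 11.8 CPM.

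Of 16 receptors for alarmins and cytokines, 10 reached the minimum only in the cells meeting the rule, and of the 4 that reached it on both sides 3 were higher and none was lower. Tnfrsf25, the receptor of the TNF family ligand TL1A, was at 62.6 against 0.156 CPM, and Il17rb, a chain of the interleukin 25 receptor, at 174 against 3.55 CPM. Il1rl1, the interleukin 33 receptor, was at 780 against 34.0 CPM, a log2 ratio of 4.48. Il1rl1 is also a mast cell gene, and without the cells carrying mast cell genes its log2 ratio was 4.12. Over the KO lymphoid-primed cells it was 7.38. Tnfrsf18 was at 323 against 14.9 CPM and Il9r at 29.2 against 0.254 CPM.

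Of 17 receptors for neuropeptides and lipid mediators, 6 reached the minimum only in the cells meeting the rule, and of the 4 that reached it on both sides 1 was higher and none was lower. Cysltr1, which binds cysteinyl leukotrienes, was at 314 against 1.86 CPM. Vipr2, a receptor of vasoactive intestinal peptide, was at 48.6 against 0.593 CPM. Ramp3, a partner protein of the calcitonin receptor family, was at 48.4 against 0.196 CPM. Nmur1, the neuromedin U receptor of mature ILC2, stayed under the minimum with 5.80 CPM, while the other KO cells had 0 UMIs of it.

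Of 18 effector products 11 did not reach the minimum, 6 reached it only in the cells meeting the rule, and 1 reached it on both sides and was higher. Arg1, arginase 1, was at 58.5 against 0.124 CPM, and Penk, which encodes enkephalin peptides, at 36.4 against 0.0521 CPM. Il13 was at 37.9 and Il4 at 52.5 CPM, against 1.13 and 3.27 CPM in the other KO cells. These type 2 cytokines are also made by mast cells, and without the cells carrying mast cell genes the log2 ratios of Il13 and Il4 were 3.78 and 3.31. Il5 was at 2.29 CPM and Il9 at 0 UMIs in the KO cells, both under the minimum.

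Of 25 surface and homing genes, 4 reached the minimum only in the cells meeting the rule and 1 only in the other KO cells, and of the 9 that reached it on both sides 4 were higher and 1 was lower. Pdcd1, the receptor PD-1, was at 202 against 0.639 CPM, and Ccr9, a gut homing receptor, at 120 against 0.404 CPM. Ly6a, which encodes Sca-1 of the sort gate, was at 2965 CPM in the KO cells meeting the rule, 116 in the other KO cells and 488 in the WT cells meeting the rule. Kit, the other gate gene, was at 264 against 69.0 CPM, but its log2 ratio of 1.92 fell to -0.14 against the other KO cells of up to 8000 UMIs. Ptprc, the leukocyte antigen CD45, was at 270 against 66.2 CPM.

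In the signalling of interleukin 7 and its relatives, 7 of 16 genes reached the minimum only in the cells meeting the rule, and of the 8 that reached it on both sides 4 were higher and none was lower. Over the KO lymphoid-primed cells the difference was smaller. There 9 reached the minimum on both sides, of which 1 was higher and none was lower, and the median log2 ratio of all 15 measured was 0.63. Of all genes that reached the minimum on both sides in that comparison, 3.68% were higher and 3.22% lower. The higher genes of the list included the feedback inhibitors Cish (137 against 7.23 CPM), Socs1 (233 against 13.9 CPM) and Socs2 (50.4 against 4.0 CPM) and the survival gene Bcl2 (329 against 38.9 CPM). Of the genes in no list, those with the largest ratios and at least 50 CPM included Ly6c1, Epcam, Gimap3, Prnp, Skap1, Stab2, Hs3st1, Epas1, Adam19, Sh2d2a, Tcrg-C4, Fhl2, Rnf128 and Filip1l, with log2 ratios from 7.02 for Ly6c1 to 5.14 for Filip1l. Ly6c1 was at 339 CPM and the cell adhesion gene Epcam at 210 CPM, against 1.62 and 0.756 in the other KO cells.

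Some defining markers of other lymphocytes were absent or near 0, while other markers of T cells and NK cells were higher than in the other KO cells. In the KO cells meeting the rule Cd3e, Cd4, Cd8a and Cd5 of T cells, Ms4a1 and Pax5 of B cells, Ifng of NK cells and ILC1, and Il23r, Ccr6, Il22 and Il17a of ILC3 all had 0 UMIs. Tbx21 and Ncr1 had 1 UMI each. Of 15 T cell markers 11 did not reach the minimum, 3 reached it only in the cells meeting the rule, and 1 reached it on both sides and was higher. The 15 summed to 316 CPM, against 26.1 CPM in the other KO cells. Of 14 NK and ILC1 markers 3 reached the minimum, 1 of them only in the cells meeting the rule, and the other 2 were split, 1 higher and 1 lower. None of 7 ILC3 genes reached the minimum level. Constant regions of the T cell receptor were present all the same, Trbc2 at 100 CPM, Trbc1 at 68.4 and Tcrg-C4 at 58.8, against 0.313, 0.847 and 0.189 CPM in the other KO cells. The kinase Zap70 was at 27.6 against 0.0978 CPM. The granzyme Gzma was at 110 against 1.01 CPM. Gzmb was at 459 CPM over all of them and at 2437 CPM in the group with mast cell genes described below. The alpha globin gene Hba-a1 was at 108 against 1.55 CPM, while the beta globin gene Hbb-bs was at 0.458 CPM.

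A B cell marker, Ighm, and a plasma cell marker, Igkc, were higher and reached the minimum only in the cells meeting the rule, and without 1 KO cell rich in Igkc the medians of the 2 lists turned from 1.73 and 3.19 to -0.98 and -0.54. Of 3 dendritic cell markers that reached the minimum on both sides none was higher or lower. Of 4 megakaryocyte and erythroid markers that did so 1 was higher, and of 4 lymphoid progenitor markers 2 were higher and none was lower. Cd27 and Satb1 were higher, at 213 against 95.2 CPM and 105 against 34.9 CPM, and Flt3 was at 23.7 against 29.8 CPM. Among 4 markers of hematopoietic stem cells that reached the minimum on both sides none was higher or lower, and 3 reached it only in the cells meeting the rule, among them Mllt3 at 43.4 against 5.98 CPM and Hlf at 50.6 against 16.1 CPM. The log2 ratio of Hlf was 1.59 over all other KO cells but -0.29 over those of up to 8000 UMIs. In groups 1 and 2, described below, the megakaryocyte and erythroid median was -3.40, against 0.72 over all KO cells meeting the rule. There 3 of 5 measured were lower, all of which reached the minimum only in the other KO cells. Stem cell markers summed to 311 CPM in these groups, against 1748 CPM over all KO cells meeting the rule and 2649 CPM in the other KO cells.

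Myeloid genes were low against the other KO cells as a whole. Elane was at 69.4 against 2611 CPM (log2 ratio -5.21), Mpo at 90.7 against 1651, Prtn3 at 453 against 4728 and Ctsg at 673 against 4357 CPM. In part the rule on possible doublets, which uses these 4 genes, sets this, and with the possible doublets kept 22 genes in all were at least 2-fold lower in place of 551. Of the genes in no list, those that were lowest were Hp, Ms4a3, Plac8, Hist1h1b, H2afx, Gstm1, Mt1, Hmgn2, Hist1h2ap and Ap3s1, with log2 ratios from -4.29 for Hp to -1.66 for Ap3s1. The 4 measured late neutrophil genes and the 4 measured monocyte genes were lower, though 3 and 2 of them reached the minimum only in the other KO cells and could only be lower. Against the other KO cells of up to 8000 UMIs the late neutrophil median turned to 0.026, and Hist1h1b, Hist1h2ap and Ap3s1 turned to log2 ratios of 1.74, 1.13 and 0.44. Over the KO lymphoid-primed cells 3 of the 4 granule genes lay within 2-fold and 1 was lower, with a median log2 ratio of -0.29. The 1 late neutrophil gene measured there lay within 2-fold, and the 2 monocyte genes measured were lower.

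Genes of the cell cycle were low as well. Of 39 measured S phase genes 29 were at least 2-fold lower and none was higher, with a median log2 ratio of -1.26, and 19 of the 27 that reached the minimum on both sides were lower. Of 47 measured G2M genes 36 were lower and none was higher, with a median of -1.79, and 16 of the 26 that reached the minimum on both sides were lower. Of all genes compared 9.03% were lower, and of those that reached the minimum on both sides 6.75%. Against the other KO cells of up to 8000 UMIs these medians turned to 0.33 and 0.091, so the direction depends on the cells compared.

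Clustering on genes other than the 6 rule genes split the 781 KO and 130 WT cells into 6 groups. Group 1 held 330 KO and 4 WT cells and group 2 held 203 KO and 3 WT cells. These 2 groups, 7.94% of the KO library (7.31 to 8.62), had low UMI counts, with medians of 4637 and 4260 in KO. Their genes with the largest ratios over the other KO cells were Calca, Il7r, Icos and Cxcr6, which the selection of the cells fixed, with Pdcd1, Ly6c1, Epcam and Cysltr1. Both are called innate lymphoid-like by the markers named for that type, which are the 6 rule genes, so these ratios are no independent support for the name. T cell markers stood beside them here too, summed to 490 CPM against 26.1 CPM in the other KO cells. Of these, Cd3e, Cd4, Cd8a and Cd5 had 0 UMIs. The T cell receptor segment Trdv4 was at 56.0 CPM in group 1, KO and WT cells together. In group 1 Calca was at 7563 CPM, Il7r at 1512 CPM and Gata3 at 847 CPM, and in group 2 at 4638, 1646 and 718 CPM.

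The 2 groups differed from each other in a few genes. Group 1 had more Calca, Ramp3 (120 against 48.7 CPM) and Ikzf3 (186 against 110 CPM). Group 2 had more Gzma (392 against 141 CPM), Penk (120 against 56.2 CPM), Klrg1 (55.3 against 32.0 CPM), a marker of mature lymphocytes, and Tnfrsf25 (143 against 110 CPM). These genes defined the groups, so the differences are a description. Ly6a was at 5689 and 5388 CPM and Kit at 314 and 209 CPM, while Cd34 was at 2.61 and 5.42 CPM and Flt3 had 0 UMIs in both.

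In groups 1 and 2 summed, of 6098 genes, 14.5% were at least 2-fold higher than in the other KO cells and 20.7% at least 2-fold lower. Of 62 ILC2 genes measured 49 were higher and 3 lower, with a median log2 ratio of 3.46, but 37 reached the minimum only in these groups. Of the 22 that reached it on both sides 12 were higher and none was lower, where 7.33% of all genes reaching it on both sides were higher and 13.3% lower. The S phase median was -2.73 and the G2M median -3.62, and of the 11 S phase and 11 G2M genes that reached the minimum on both sides 8 and 6 were lower. The 10 mast cell and basophil genes measured reached the minimum only in the other KO cells, so they could only be lower, with a median of -4.31. Mast cell and basophil genes summed to 87.6 CPM in these groups against 1828 CPM in the other KO cells and 2054 CPM in free RNA.

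Group 3 was mast cell-like. It held 75 KO and 69 WT cells, all of which carried mast cell genes by the definition above. In KO it had Cpa3, a mast cell carboxypeptidase, at 30681 CPM and the chymase Cma1 at 30026 CPM, against 14.4 and 9.80 CPM in group 1. It met the rule mainly by Il2ra and Calca, at 429 and 291 CPM in KO and 271 and 1630 CPM in WT, with Il7r at 58.7 and 73.8 CPM. Calca in the WT cells of this group was uneven, with a median of 3 UMIs a cell and 200 UMIs in the highest, and 10 cells held 76.6% of its UMIs. Il1rl1 was at 1899 CPM in KO and 1564 CPM in WT. Over all KO cells meeting the rule the mast cell genes were higher than in the other KO cells for 10 of the 10 that reached the minimum on both sides, with 1 more that reached it only in these cells. Among them were Tpsb2, Fcer1a, Prss34, Cpa3 and Cma1. Without the cells that carry them, 8 of 10 were lower, 7 of which reached the minimum only in the other KO cells. Their median log2 ratio was 2.88 with these cells, -3.90 without them, and -0.017 against the other KO cells of up to 8000 UMIs.

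Group 4, with 108 KO and 4 WT cells, stayed unnamed. Its KO cells had a median of 15042 UMIs, and its genes with the largest ratios over the other cells meeting the rule were Vldlr, Adgrl4, Ccnd1 and Myct1. It had Cd34 at 253 CPM and Flt3 at 52.8 CPM, both absent or near 0 in groups 1 and 2. Il7r was at 459 CPM there and at 1512 CPM in group 1, but the number of Il7r UMIs per cell was about the same, 7.41 against 7.01. For Calca it was 29.8 against 35.1 UMIs a cell and for Gata3 4.55 against 3.93. These cells thus held about as many Il7r, Calca and Gata3 UMIs as those of group 1, within more UMIs in all. Whether they are doublets below the granule gene threshold was not tested.

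Group 5, with 45 KO and 16 WT cells, was led by Prss34, a basophil protease, with Akr1c18 and Ccl6, and 18 of its KO and 13 of its WT cells carried mast cell genes. Its KO cells had a median of 26700 UMIs, with 8.93 Il7r UMIs and 26.8 Calca UMIs a cell, and Top2a at 292 CPM against 5.88 in group 1. It stayed unnamed.

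Group 6 held 20 KO and 34 WT cells and was the main group of WT cells without mast cell genes. Nearly all of its UMIs of Igkc, an immunoglobulin light chain, lay in 2 cells, 1 WT cell with 23254 of 23291 and 1 KO cell with 2151 of 2151. Without these 2 cells its genes with the largest ratios over the other KO cells were Il7r, Trbc1, Trbc2, Cxcr6, Tcrg-C4 and Arg1. In its WT cells Il7r was at 1510 CPM, Gata3 at 760, Cxcr6 at 428, Arg1 at 391 and Id2 at 1607 CPM, while Calca was at 273 CPM with 43 of its 51 UMIs in 1 cell. In its KO cells Tcf7 was at 563 CPM and Rora at 539 CPM. Since T cell receptor genes stood beside innate lymphoid genes, and Cd3g was at 85.7 CPM in the WT cells, the group stayed unnamed. T cell markers summed to 1751 CPM in its WT cells without the Igkc-rich cell. They were not particular to this group, since they also stood in KO groups 1 and 2, at 490 CPM.

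**Figure D3:**
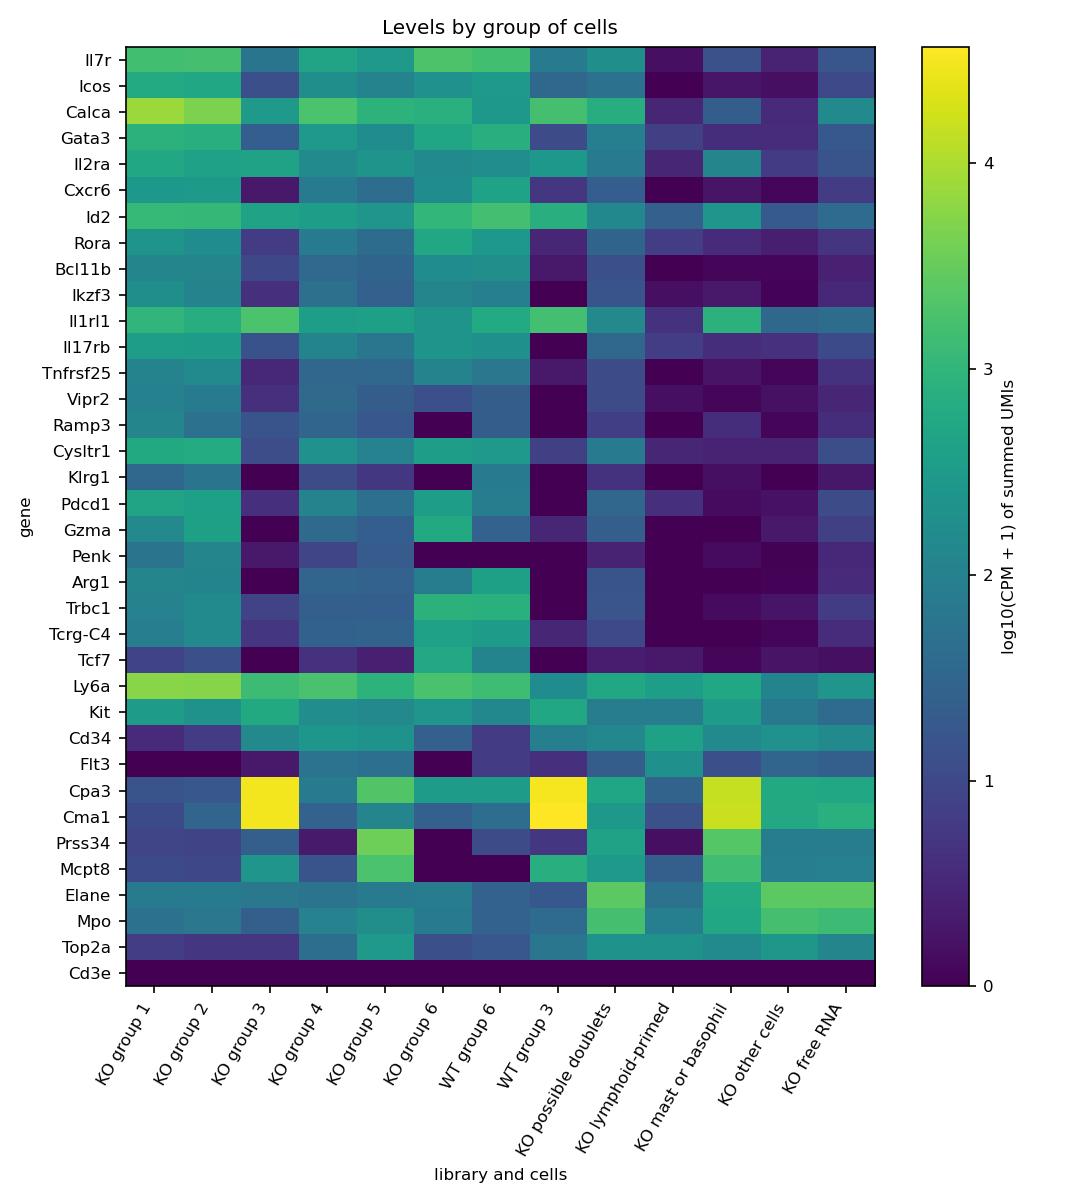
Colour gives the level of each gene, log10 of CPM plus 1 of summed UMIs, in the groups of cells meeting the rule and in other cells of the libraries. Groups 1 and 2 are high in the rule genes and ILC2 genes and near 0 in Cd34, Flt3 and Top2a, group 3 is high in Cpa3 and Cma1, and Cd3e is at or near 0 throughout.

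**Figure D4:**
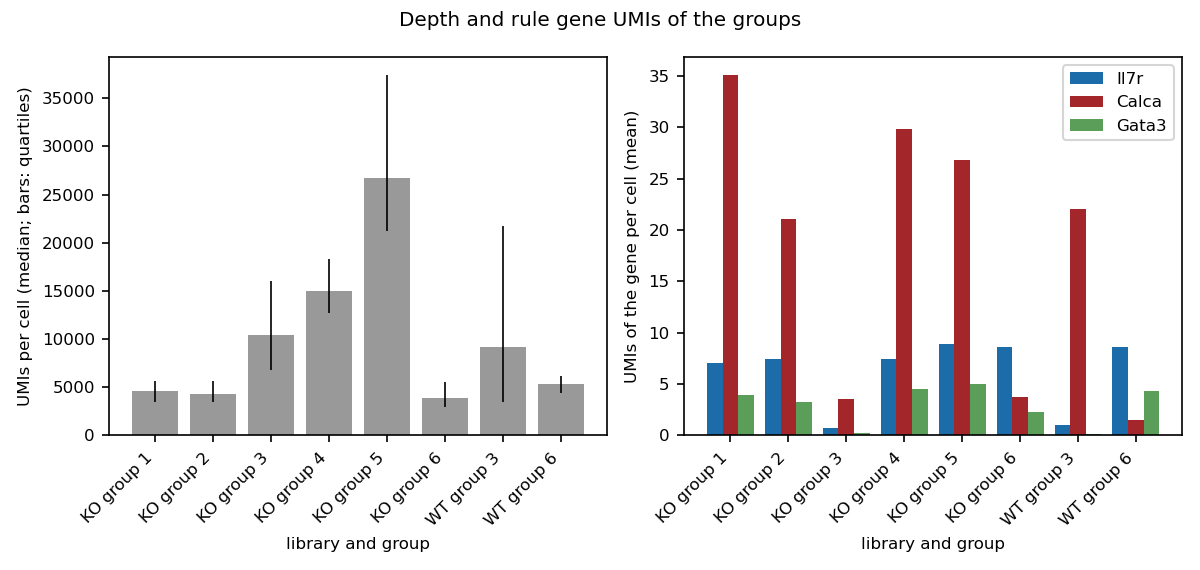
Left, the median UMIs per cell with quartiles. Right, the mean UMIs per cell of Il7r, Calca and Gata3. Groups 4 and 5 in KO hold 7.41 and 8.93 Il7r UMIs a cell, as group 1 does with 7.01, although their cells hold more UMIs, and WT group 6 holds few Calca UMIs.

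Between the genotypes, the 781 KO cells were set beside the 130 WT cells. Ratios are KO over WT, with an exact conditional binomial interval of the counts, and with 1 library each they compare these libraries only. The cells were selected on the rule genes, whose levels differ with the makeup of the selected cells, so their ratios are a description from which no direction is read. On the log2 scale they were 1.47 for Il7r, 1.85 for Icos, 1.52 for Calca, 1.38 for Gata3, 0.38 for Il2ra and 0.69 for Cxcr6. The share of cells with mast cell genes differed between the 2 sides, 12% in KO and 64.6% in WT, and Cpa3 was at 4770 CPM in KO and 20365 CPM in WT.

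Without those cells, and without the 2 cells rich in Igkc, 686 KO and 45 WT cells remained. For the rule genes the values here are again a description. Calca was at 3940 CPM in KO and 305 CPM in WT, a log2 ratio of 3.69. The median cell had 13 Calca UMIs in KO and 0 in WT, before the Igkc-rich cells were left out, and 1 WT cell held 40.2% of the WT UMIs. Il7r was at 1005 CPM in KO and 1002 CPM in WT, a log2 ratio of 0.00. The log2 ratios of Icos and Il2ra were 0.70 and 1.25. Gata3 was at 525 and 657 CPM, a log2 ratio of -0.32, and the ratio of Cxcr6 was -1.03.

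Among 64 ILC2 genes with enough counts in these 686 KO and 45 WT cells, the interval lay above 0 for 25, below 0 for 20 and across 0 for 19, with a median of 0.24. Of all 6012 genes with enough counts 9.1% had an interval above 0 and 11.4% below, with a median of -0.030. Intervals narrow as a gene's counts rise, and they are too narrow where few cells hold many of the UMIs. Among the 46 WT cells, with the Igkc-rich cell kept, 1 cell held 15.6% of the Ly6a UMIs. Of 16 transcription factors 3 had intervals above 0, 7 below and 6 across it. Id2 was at 718 CPM in KO and 1312 in WT, a log2 ratio of -0.87 (-1.01 to -0.73), and Bcl11b at 77.2 and 196 CPM, -1.33 (-1.72 to -0.96). Of 14 alarmin and cytokine receptors 8 had intervals above 0, 2 below and 4 across it. Il17rb was at 218 and 145 CPM, 0.59 (0.18 to 1.02), and Il1rl1 at 606 and 478 CPM, 0.34 (0.12 to 0.57). Ly6a was at 3516 CPM in KO and 1321 in WT, 1.41 (1.28 to 1.55). Klrg1 was at 24.1 and 82.5 CPM, -1.73 (-2.37 to -1.14), and Arg1 at 73.9 and 287 CPM, -1.95 (-2.28 to -1.63). Trbc1 was at 85.3 and 626 CPM, -2.86 (-3.11 to -2.63), and Thy1 at 14.6 and 151 CPM, -3.28 (-3.90 to -2.83).

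Different groups held most of these cells in the 2 libraries, groups 1 and 2 in KO and group 6 in WT. Within groups 1, 2 and 6 alone, with 552 KO and 40 WT cells and without the Igkc-rich cells, 24 of 64 ILC2 genes had an interval above 0 and 17 below, where 6.65% and 11.3% of all genes with enough counts did. The median ratio of the ILC2 genes was 0.32, that of Calca was 4.31 and that of Gata3 was 0.021. This choice of groups kept the imbalance, with 533 of the 552 KO cells in groups 1 and 2 and 33 of the 40 WT cells in group 6. In group 6 alone, Igkc-rich cells kept, Calca had 74 UMIs in 20 KO cells and 51 in 34 WT cells. The median cell of group 6 held 0 Calca UMIs in both libraries. Tspoap1, the neighbour of the miR-142 host gene on chromosome 11, was at 650 CPM in KO and 2.85 CPM in WT here, and at 333 and 3.88 CPM in the other cells of the 2 libraries.

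**Figure D5:**
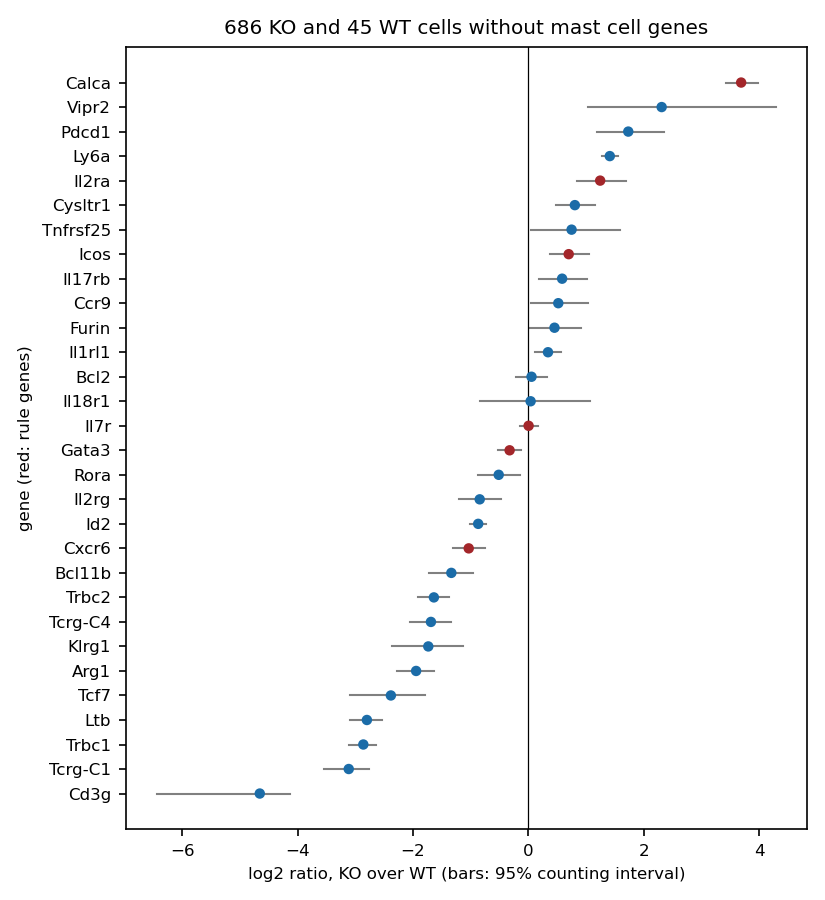
Points are log2 ratios, KO over WT, of summed UMIs in 686 KO and 45 WT cells without mast cell genes, and bars are 95% counting intervals. Rule genes, on which the cells were selected, are in red and are a description. Calca lies farthest to the right at 3.69, Il7r lies at 0, and Cd3g, Tcrg-C1, Trbc1 and Ltb lie to the left.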

How the data were processed

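LSK cells were taken from CML mice with and without miR-142, 1 library each, and measured by droplet single-cell RNA-seq. The authors deposited unfiltered matrices of raw UMI counts, made with Cell Ranger 6.1.2 on mm10 according to the processing notes, although the matrix header names another release of the software. The libraries held 170881210 WT and 187721815 KO UMIs, and the 6658 WT and 6711 KO cells had medians of 15915 and 19152 UMIs. Barcodes with at least 1000 UMIs and under 10% mitochondrial UMIs were kept as cells. The members and gene lists were chosen with earlier results of these data known.

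UMIs were summed over cells, scaled to CPM, and compared as log2 ratios with a pseudocount of 1 CPM among genes with at least 20 CPM on either side. Values at least 2-fold apart were counted, with no test, because each genotype had 1 library. Shares have Clopper-Pearson intervals and levels exact Poisson intervals, which cover counting error only. No doublet caller was run. Possible doublets were set aside by depth and granule genes, and others may remain. The cells were clustered by the Leiden method at resolution 0.5 on 1000 variable genes, 15 components and 15 neighbours, with the rule genes left out (Scanpy 1.11.5, leidenalg 0.10.2). Thinning drew 1000 UMIs from each cell at random. The named genes were the rule genes, up to 6 in each list furthest from 0, and outside the lists the 15 highest with at least 50 CPM in the cells meeting the rule and the 10 lowest with at least 200 CPM in the other KO cells. Genes that lead a group, Tspoap1, Tcf7, Il5, Il9, Hbb-bs, Thy1 and Flt3 were named after their values were seen. On simulated counts for this comparison, 5308 genes with 200 changed, 100% of 4-fold changes were called and 0% of unchanged genes. The simulated counts held no variation between cells, no doublets and no selection of cells. They check the calculation only, and their rates do not carry over to the calls made here. Alternatives changed the depth minimum, the rule, the doublets, the comparison cells, the scaling and the pseudocount. SciPy 1.17.1, pandas 2.3.3 and numpy 2.4.6 were used. Some genes that the rule for named genes covers are not reported here.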

Additional observations from a re-analysis of the deposited data

Results flagged for a closer look

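Cd27, a receptor of the TNF receptor family, and Hlf, a transcription factor of stem cells, moved in opposite directions in the 2 libraries. In KO the cells meeting the rule had more of both than the other cells, with log2 ratios of 1.15 for Cd27 and 1.59 for Hlf, and in WT they had less, with -1.33 and -2.12. The difference was not tested. Without the cells that carry mast cell genes and the Igkc-rich cell, the WT ratios were 0.45 and -0.30 and the KO ratios without mast cell genes 1.47 and 1.86.

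Barcodes with at least 500 but under 1000 UMIs, which were not counted as cells, also met the rule in 10 of 108 cases in KO (9.26%, 4.53 to 16.4), against 1 of 384 in WT (0.260%, 0.00659 to 1.44).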

How the results depend on the processing

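Each genotype had 1 library, and leaving out a replicate was not possible. No paired analysis was possible because there was 1 library per genotype and no result came from a test. Depth limits genes under 20 CPM. Leaving out cells with mast cell genes, taking groups alone and leaving out Igkc-rich cells were chosen after seeing the data, and the causes of the changes below were not tested.

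The KO share was 13.1%, and 11.0% with 8 UMIs per 10,000 and 3 rule genes. It was 11.6% without possible doublets and 8.88% at 1000 UMIs a cell. Without cells with mast cell genes, but with possible doublets kept, it was 11.5%. The WT share was 2.0%, and 0.931% with the stricter rule and 0.796% at 1000 UMIs a cell. Without cells with mast cell genes, but with possible doublets kept, it was 0.721%. A minimum of 500 or 2000 UMIs and a mitochondrial limit of 5% kept both shares within their intervals. Higher genes numbered 757, but 409 with possible doublets kept, 257 against other KO cells of up to 8000 UMIs, 413 at a minimum of 50 CPM and 1722 with no minimum. Lower genes numbered 551, but 22, 297, 343 and 897 under the same settings and 1260 in groups 1 and 2.

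The ILC2 median of 3.12 was 2.83 with the stricter rule, 2.73 with possible doublets kept, 1.19 against other KO cells of up to 8000 UMIs, 2.54 as a mean over cells, 3.34 with a pseudocount of 0.1 CPM, 2.91 without cells with mast cell genes and 3.46 in groups 1 and 2. It was above 0 in each of these and in the other alternatives run, but this is no support. Of the genes behind it, 35 of 60 reached the minimum only in the cells meeting the rule. Without cells with mast cell genes 34 of 59 did so, and in groups 1 and 2 it was 37 of 62. Such genes can only lie higher and were most of those measured, so the sign of these medians was fixed in advance. The median of all genes was -0.10, and -0.17 with size factors. At resolution 1.0 there were 10 groups in place of 6.

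Against other KO cells of up to 8000 UMIs the medians turned to 0.33 for S phase genes, 0.091 for G2M genes, 0.026 for late neutrophil genes and -0.017 for mast cell genes, and single genes to -0.50 for Tpsb2, -0.017 for Fcer1a, -0.77 for Cma1, -0.29 for Hlf, -0.14 for Kit, 1.74 for Hist1h1b, 1.13 for Hist1h2ap and 0.44 for Ap3s1. Without cells with mast cell genes the median of mast cell genes turned to -3.90, with -5.52 for Tpsb2, -4.28 for Fcer1a, -3.98 for Prss34, -3.82 for Cpa3 and -5.43 for Cma1. In groups 1 and 2 these were -4.31, -5.09, -4.75, -3.32, -5.18 and -5.00, and the stricter rule gave -0.27 for Tpsb2. The B cell and plasma cell medians turned to -1.59 and -1.28 in groups 1 and 2 and to -0.98 and -0.54 without the Igkc-rich cell. The megakaryocyte and erythroid median turned from 0.72 to -3.40 in groups 1 and 2.

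Between KO and WT without mast cell genes, the log2 ratios were 0.0046 for Il7r, 0.70 for Icos, 3.69 for Calca, -0.32 for Gata3, 1.25 for Il2ra and -1.03 for Cxcr6, and within groups 1, 2 and 6 they were 0.16, 0.99, 4.31, 0.021, 1.42 and -0.85.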
